A study of Rattus norvegicus with 8 samples.

Results

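The results concern 10 immediate early genes in rat brain tissue taken after an injection into the striatum: Fos, Fosl2, Junb, Jun, Egr1, Egr2, Egr4, Arc, Nr4a1 and Ptgs2. They were chosen by name, and every probe set that the platform annotation pairs with 1 single gene symbol among these names was taken, which gave 16 probe sets for the 10 genes, of 20826 such probe sets for 14217 genes in all. Brain RNA of adult male Wistar rats was read on 8 Affymetrix Rat Genome arrays. For 4 arrays, a baculovirus vector inactivated with ultraviolet light (254 nm, 1 hour) had been injected into the striatum, 50000000 particles in 5 µl. The other 4 are from striatum injected with 5 µl of the buffer alone (phosphate-buffered saline, PBS). Tissue was taken 48 hours after injection in both groups, so both carry the needle injury. A baculovirus is an insect virus that enters mammalian cells without replicating in them. The design text names 7 rats and a PBS injection opposite to the vector, and the labels tie no array to a rat. If the 8 arrays came from these 7 rats, some share an animal, and the p-values measure the spread between these samples, which may be partly technical. The age of the rats is not given in the labels, and there was no uninjected tissue, so the levels below cannot be set against an undisturbed brain.

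Immediate early genes are switched on within minutes of a stimulus, without new protein synthesis, when kinase cascades and calcium signals activate transcription factors already bound at their promoters. In neurons of the striatum and cortex synaptic activity, dopamine and injury are known to induce them, and most of their transcripts decay within hours. Fos, Fosl2, Jun and Junb encode subunits of the AP-1 transcription factor, Egr1, Egr2 and Egr4 encode zinc finger transcription factors, Nr4a1 encodes an orphan nuclear receptor, Arc encodes a synaptic protein that regulates AMPA receptor traffic, and Ptgs2 encodes cyclooxygenase-2, the inducible enzyme of prostaglandin synthesis.

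The known promoter elements of this class are the CArG box, which binds serum response factor, and the cyclic AMP response element, which binds CREB. RefSeq promoter windows of the assembly GRCr8 were at hand for 7 of the 10 genes. Of each, the 250 bases before the annotated start were searched on both strands for the CArG box, for the half-site TGACG of the cyclic AMP element, for its full form TGACGTCA and for the TATA motif TATAAA. Each full form holds the half-site. The half-site was in 5 of the 7 windows (Egr1, Egr2, Egr4, Junb and Nr4a1) and in 18.2% of all 33360 windows of that length. The CArG box was in 2 (Egr1 and Egr2) and in 499 of the 33360 windows. TATAAA was found for Junb alone among the 7 and in 12.9% of all windows, and the full TGACGTCA in 0 of the 7 and in 1.59%. The windows of Junb, Egr4 and Nr4a1 are shown because these genes varied together over the arrays, that of Egr2 because it holds a CArG box, and that of Ptgs2 because its values ran the other way. Capitals mark the CArG box, the half-site on either strand and TATAAA, and a match of letters shows no binding.
Junb, chr19:40080876-40081125, plus strand: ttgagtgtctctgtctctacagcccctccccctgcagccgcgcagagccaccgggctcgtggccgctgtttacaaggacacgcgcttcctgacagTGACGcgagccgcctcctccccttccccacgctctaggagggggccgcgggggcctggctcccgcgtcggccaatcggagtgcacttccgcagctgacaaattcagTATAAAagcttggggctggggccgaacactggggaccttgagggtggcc
Egr4, chr4:119607818-119608067, minus strand: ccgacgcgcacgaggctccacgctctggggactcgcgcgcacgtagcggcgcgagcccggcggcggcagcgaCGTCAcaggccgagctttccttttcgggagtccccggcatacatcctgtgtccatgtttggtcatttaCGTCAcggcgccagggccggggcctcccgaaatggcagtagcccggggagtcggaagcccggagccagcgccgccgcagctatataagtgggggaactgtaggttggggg
Nr4a1, chr7:134259888-134260137, plus strand: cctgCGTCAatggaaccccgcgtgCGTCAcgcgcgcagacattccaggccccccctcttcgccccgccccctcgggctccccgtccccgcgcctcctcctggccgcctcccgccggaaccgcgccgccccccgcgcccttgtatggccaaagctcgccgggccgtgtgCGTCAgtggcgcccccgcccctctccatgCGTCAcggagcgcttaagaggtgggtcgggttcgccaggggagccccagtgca
Egr2, chr20:21054442-21054691, minus strand: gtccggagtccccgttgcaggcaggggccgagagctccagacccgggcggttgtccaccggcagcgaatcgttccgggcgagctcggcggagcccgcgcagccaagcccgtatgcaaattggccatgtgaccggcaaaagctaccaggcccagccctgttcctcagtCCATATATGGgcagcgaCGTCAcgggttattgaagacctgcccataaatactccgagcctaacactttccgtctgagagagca
Ptgs2, chr13:64713813-64714062, plus strand: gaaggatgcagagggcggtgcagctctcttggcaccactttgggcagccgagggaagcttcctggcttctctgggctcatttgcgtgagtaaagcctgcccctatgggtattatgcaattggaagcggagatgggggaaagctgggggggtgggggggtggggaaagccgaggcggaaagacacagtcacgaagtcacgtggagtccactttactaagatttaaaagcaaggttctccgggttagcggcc
Nr4a1 held 4 half-sites, Egr4 held 2, and Junb and Egr2 held 1 each, while the Ptgs2 window held none of these motifs. Of the windows not shown, that of Egr1 held 2 CArG boxes and 2 half-sites, and that of Fosl2 held none of the motifs. The windows shown were picked after the values were seen, and a link between motifs and variation over the arrays was not tested.

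The deposited values are intensities, already scaled to a common level per array. They were tested as log2(intensity + 16), and differences below are on that scale, inactivated baculovirus minus PBS, which understates changes at low intensity. The limma test covered the 18625 probe sets that exceeded the 40th percentile of mean level (an intensity of 26.0, called the level filter here). Arrays correlated at r between 0.970 and 0.986. Of the 17 striatal neuron marker genes on the array all 17 were above the level filter, and the medium spiny neuron gene Ppp1r1b (DARPP-32) stood between 976 and 1393 on every array, so the labelled tissue carried its markers. PBS replicate 4 stood apart in the choroid plexus gene Ttr, at 47.7 against 1563 to 1968 on the other 7 arrays. Results that change without that array are given both ways.

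Transcripts of 9 of the 10 immediate early genes were measured above the level filter at 48 hours in both groups, and none passed the test between the groups. In whole tissue fewer cells of a type and less RNA per cell cannot be told apart. Of the 11 member probe sets tested, 0 passed a limma adjusted p of 0.05 after Benjamini-Hochberg adjustment over all probe sets, where 0% of all probe sets were called, and 0 were under an unadjusted p of 0.05, where 6.73% of all probe sets were (4.22% lower and 2.51% higher). The methods' t-test also called 0 of the 11. The limma adjusted p of the members lay between 0.742 and 0.984. No member probe set separated the groups completely, against 3.86% of all probe sets tested (2.31% lower and 1.55% higher). Of the 11, 5 had a higher and 6 a lower mean after inactivated baculovirus, where 53.7% of all probe sets were higher and 46.3% lower. With 1 probe set a gene, the brightest, 4 genes had a higher mean after inactivated baculovirus (Junb, Arc, Nr4a1 and Egr4) and 5 a lower one (Ptgs2, Egr2, Fos, Egr1 and Jun). Their median log2 difference was -0.02, beside 0.02 over all 10539 genes tested, of which 55.7% had a higher mean. The standard errors ran from 0.09 for Jun to 0.26 for Arc. In this fit, which has no block, a difference of the size seen for Arc could not be resolved. With the replicate number as a block the SE of Arc was 0.10, and its limma adjusted p was 0.785.

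**Figure D1:**
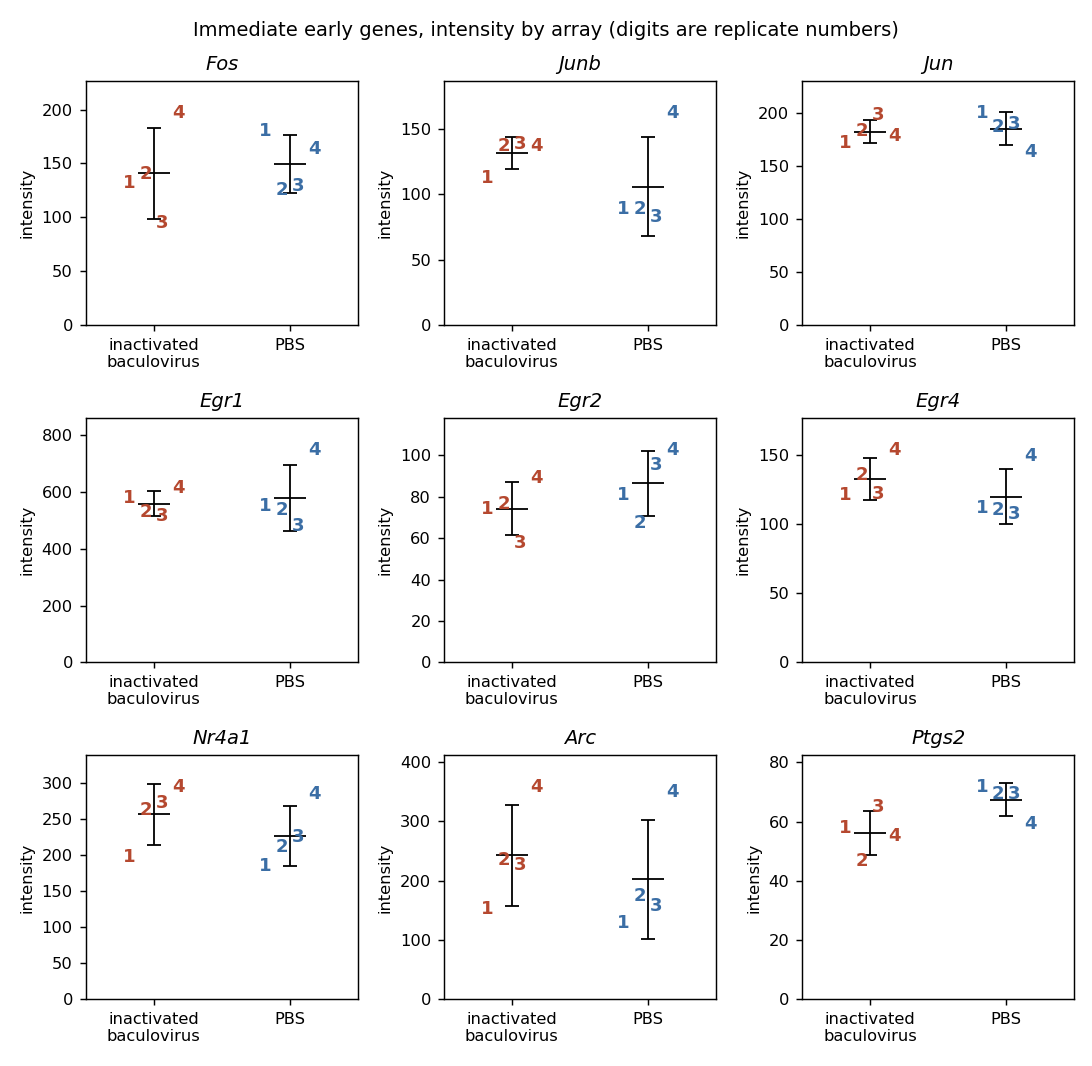
Intensity (linear scale, from 0) of the brightest probe set of 9 immediate early genes on the 4 inactivated baculovirus arrays and the 4 PBS arrays. Coloured digits are the arrays by replicate number, spread sideways only for legibility, the black bars are the group mean ± SD, and for Arc, Nr4a1, Egr4 and Egr1 both replicates 4 are the highest arrays.

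Among the AP-1 subunits, Junb had the largest log2 difference between the groups. Junb, a partner of Fos proteins that often restrains Jun, measured 113, 137, 139 and 137 on inactivated baculovirus replicates 1 to 4 and 89.0, 88.6, 82.9 and 162 on PBS replicates 1 to 4. All 4 baculovirus arrays lay above PBS replicates 1 to 3, and PBS replicate 4 lay above every other array, so the groups overlapped through that array. The means were 131 ± 12.4 and 106 ± 37.8 (SD, n = 4 each), with a log2 difference of 0.32 (95% interval -0.03 to 0.66, limma adjusted p = 0.742). Without PBS replicate 4 the log2 difference was 0.52 (95% interval 0.30 to 0.73, limma adjusted p = 0.324), still no call.

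Fos, the classical activity marker and the partner of Jun proteins in AP-1, measured 132, 140, 94.5 and 197 after inactivated baculovirus and 180, 125, 129 and 164 after PBS. The highest and the lowest of the 8 arrays were both baculovirus arrays, replicates 4 and 3, and the groups overlapped fully. The log2 difference was -0.10 ± 0.17 (SE, limma adjusted p = 0.924), and it was 0.051 without baculovirus replicate 3. The other Fos probe set was below the level filter, between 1.08 and 17.2.

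Jun, the core AP-1 subunit that is also induced by axonal injury, was read by 3 probe sets above the filter, and they did not share a direction. The brightest stood between 171 and 198 after inactivated baculovirus and between 163 and 200 after PBS, with a log2 difference of -0.02 ± 0.09 (SE). Its limma adjusted p was 0.984. A second, between 148 and 213 over the 8 arrays, had -0.10 ± 0.11. The dimmest of the 3 measured 64.7, 61.2, 65.8 and 45.1 against 52.7, 40.6, 50.2 and 46.1, a log2 difference of 0.24 ± 0.12. On it baculovirus replicates 1 to 3 lay above all PBS arrays and replicate 4 within them. The limma adjusted p was 0.868 for the second and 0.742 for the dimmest. The dimmest and the brightest carry the same accession in the annotation, and the names of the brightest and the second mark them as able to read more than 1 transcript.

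Fosl2, a Fos-related subunit, was the 1 member with no probe set above the filter. Its probe sets stood between 2.43 and 9.26 and between 2.77 and 16.2 over the 8 arrays, which is too dim for a comparison.

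The EGR transcription factors, which bind GC-rich sites in the promoters of plasticity genes, did not move in 1 direction. Egr1, the family member most used as an activity marker, measured 579, 528, 517 and 614 after inactivated baculovirus and 551, 537, 480 and 748 after PBS. The baculovirus arrays ran from 517 to 614 and PBS replicates 1 to 3 from 480 to 551, so these ranges overlapped in part. Its log2 difference was -0.03 (95% interval -0.28 to 0.21, limma adjusted p = 0.976), and 0.095 without PBS replicate 4. Egr4, which in neurons is known to regulate the potassium chloride transporter KCC2, measured 121, 135, 122 and 153 against 112, 110, 107 and 149. Here too the 4 baculovirus arrays lay above PBS replicates 1 to 3 and PBS replicate 4 lay among the highest. The log2 difference of Egr4 was 0.14 (95% interval -0.10 to 0.38, limma adjusted p = 0.820), with 0.24 without PBS replicate 4 (limma adjusted p = 0.455) and 0.07 without baculovirus replicate 4. Egr2, best known for its part in Schwann cell myelination and also induced by neuronal activity, measured 74.3, 76.4, 57.5 and 89.0 against 80.7, 67.3, 95.4 and 103. The groups overlapped, with a log2 difference of -0.18 (95% interval -0.47 to 0.11, limma adjusted p = 0.795). It was -0.11 without PBS replicate 4, -0.09 without baculovirus replicate 3 and -0.28 without PBS replicate 2. The second probe sets of Egr2 and Egr4 were below the filter, between 2.73 and 16.5 and between 6.96 and 29.9.

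Nr4a1, the nuclear receptor also called Nur77, measured 197, 262, 272 and 294 after inactivated baculovirus and 185, 211, 226 and 284 after PBS. Baculovirus replicate 1 lay at the low end with PBS replicates 1 to 3, and PBS replicate 4 lay at the high end. The means were 256 ± 41.7 and 227 ± 41.9 (SD, n = 4 each), with a log2 difference of 0.17 (95% interval -0.12 to 0.45, limma adjusted p = 0.813), and 0.28 without PBS replicate 4 (limma adjusted p = 0.469). It was also 0.28 without baculovirus replicate 1, and it was 0.08 without PBS replicate 1 and 0.10 without baculovirus replicate 4.

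Arc varied more between arrays than any other member above the filter. It measured 152, 236, 227 and 358 after inactivated baculovirus and 129, 174, 157 and 349 after PBS, a 2.78-fold span over the 8 arrays. The 2 highest arrays were replicate 4 of each group and the lowest was PBS replicate 1. The means were 243 ± 85.4 and 202 ± 99.7 (SD, n = 4 each), and the log2 difference of 0.28 was smaller than the spread within either group (95% interval -0.28 to 0.85, limma adjusted p = 0.845). It was 0.56 without PBS replicate 4 (limma adjusted p = 0.412) and 0.09 without baculovirus replicate 4. It was 0.12 without PBS replicate 1 and 0.47 without baculovirus replicate 1, so several single arrays moved it by over 1.5 times.

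Ptgs2, whose product makes the precursor of prostaglandins and which excitatory neurons express under normal conditions, had the smallest spread relative to its difference among genes with a lower mean. It measured 57.7, 46.8, 64.9 and 55.2 after inactivated baculovirus and 71.7, 69.3, 69.5 and 59.2 after PBS. PBS replicates 1 to 3 lay above every baculovirus array and PBS replicate 4 lay within them. The fold of the means on the fitted scale was 0.863 (95% interval 0.737 to 1.01, limma adjusted p = 0.742). Without PBS replicate 4 the log2 difference of -0.21 became -0.26 (limma adjusted p = 0.454).

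Leaving out PBS replicate 4 brought 5 of the 11 member probe sets under an unadjusted p of 0.05, where 10.5% of all probe sets then were (4.71% higher and 5.78% lower). Those of Junb, Arc, Egr4 and Nr4a1 were higher after inactivated baculovirus and that of Ptgs2 lower. None passed the limma adjusted p, and leaving out any other single array brought 0 to 2 under an unadjusted p of 0.05, with between 3.82% and 7.25% of all probe sets. PBS replicate 4 was the highest PBS array for Junb, Arc, Egr4 and Nr4a1 and the lowest for Ptgs2, so leaving it out widens these differences by construction. Baculovirus replicate 4, the highest baculovirus array for Arc, Egr4 and Nr4a1, stayed in that fit. Junb, Arc, Egr4 and Nr4a1 also varied together over the arrays, so the 5 are not separate results. PBS replicate 4 is also the array with the low Ttr signal, and the part of that difference in the result was not tested.

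**Figure D2:**
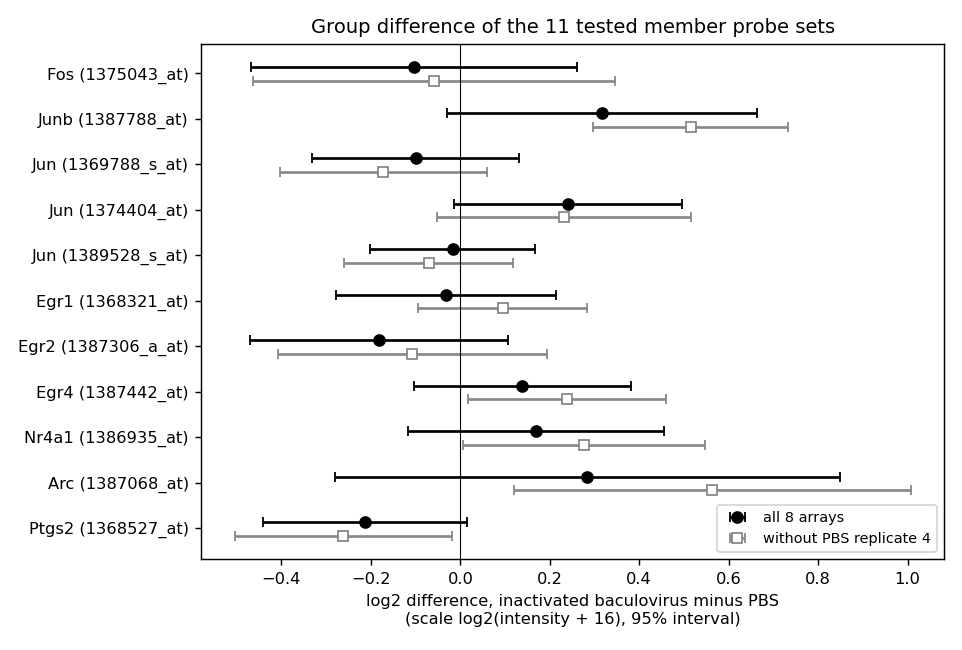
Fitted log2 difference (inactivated baculovirus minus PBS, scale log2(intensity + 16)) of the 11 tested probe sets with 95% intervals, for all 8 arrays (black circles) and without PBS replicate 4 (open squares). With all arrays every interval holds 0, and without PBS replicate 4 the intervals of Junb, Egr4, Nr4a1, Arc and Ptgs2 do not.

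The joint level of these genes differed between arrays of 1 group. Set against each gene's mean over the 8 arrays, the mean level of the 9 genes on the log2 scale was 0.22 on baculovirus replicate 4 and 0.26 on PBS replicate 4, while the remaining 6 arrays ran from -0.13 to 0.01. On each of these 2 arrays 7 of the 9 genes were above their own mean. For 4 of the 9 genes (Egr1, Egr4, Arc and Nr4a1) these were the 2 highest arrays of the series. Jun and Ptgs2 were below their mean on both of them. Over all probe sets same-numbered arrays of the groups did not deviate together, and the labels link no animals by these numbers.

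**Figure D3:**
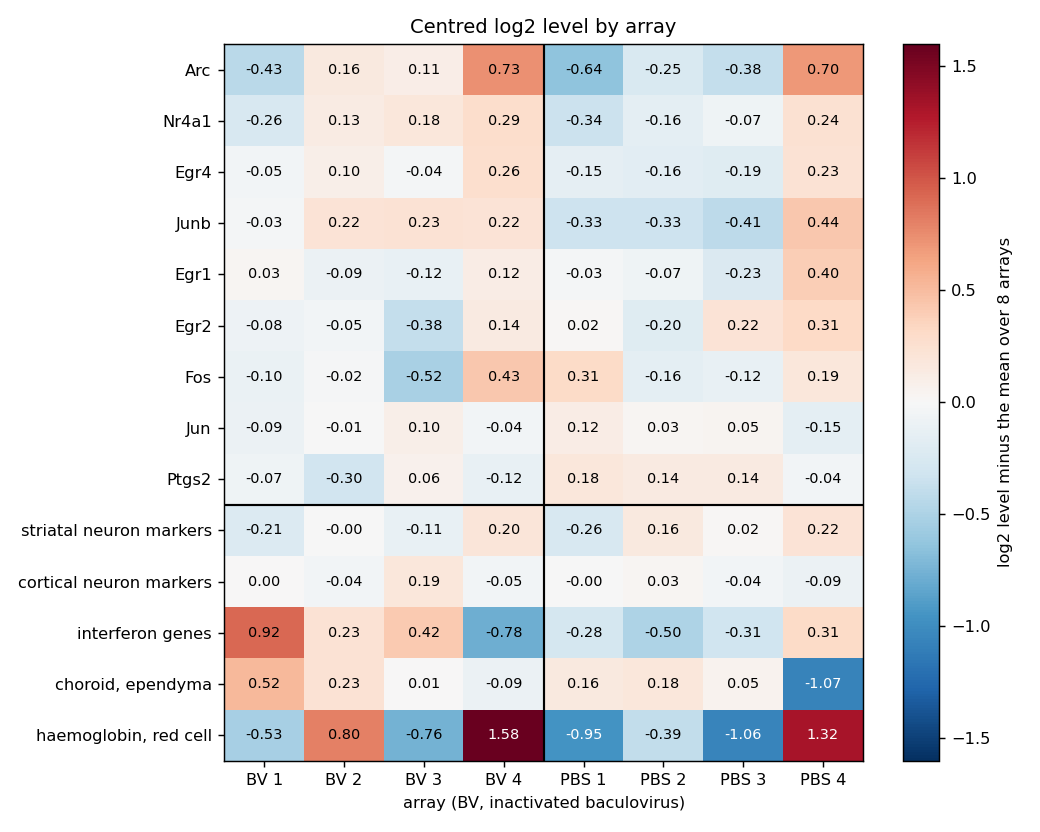
Log2 level of each gene minus its mean over the 8 arrays (colour and printed value, red higher), by array in columns, with 9 immediate early genes above the line and the mean levels of 5 marker lists below it. Baculovirus replicate 4 and PBS replicate 4 are the highest columns for Arc, at 0.73 and 0.70, and for the haemoglobin genes, at 1.58 and 1.32.

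Arc, Nr4a1, Egr4 and Junb had high values on the same arrays. Over the 36 pairs among the 9 genes Pearson's r ran from -0.786 for Jun with Egr1 to 0.941 for Arc with Nr4a1, and after Benjamini-Hochberg adjustment over the pairs 2 passed 0.05. Arc with Nr4a1 had r = 0.941 (exact two-sided permutation p = 0.00144, adjusted 0.0464) and Spearman's rho of 0.952 (exact permutation p = 0.00114, adjusted 0.0411). Without both replicates 4, which are the arrays farthest from the median of Arc, r was 0.949. Arc with Egr4 had r = 0.924 (exact permutation p = 0.00258, adjusted 0.0464) and rho = 0.810 (exact permutation p = 0.0218, adjusted 0.250), and r = 0.717 without the same 2 arrays. Neither call held with median centring, without PBS replicate 1 or without PBS replicate 2, where the highest r among Arc, Nr4a1, Egr4 and Junb was still 0.929, 0.928 and 0.941. The call of Arc with Egr4 was also lost without any other single array apart from baculovirus replicate 1. The other 4 pairs among these 4 genes had r between 0.803 and 0.883 and did not pass (adjusted exact permutation p between 0.0872 and 0.121). These 4 genes were singled out after the values were seen. If arrays share an animal they are not independent, and the permutation p is then too small.

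Outside that set no pair passed, and among the alternatives only Jun with Egr1 did, under quantile normalization. Egr1 followed Egr4 at r = 0.744 (exact permutation p = 0.0230, adjusted 0.118), with rho = 0.619 (exact permutation p = 0.115, adjusted 0.318), at r = 0.557 without PBS replicates 3 and 4 and at r = 0.263 without both replicates 4. Fos followed Egr2 at r = 0.696 (exact permutation p = 0.0540, adjusted 0.188), with rho = 0.643 (exact permutation p = 0.0962, adjusted 0.289), and at r = 0.401 without baculovirus replicates 3 and 4. Ptgs2 ran against Egr4 at r = -0.720 (exact permutation p = 0.0463, adjusted 0.185) and rho = -0.762 (exact permutation p = 0.0368, adjusted 0.250), and at r = -0.932 without both replicates 4. Jun ran against Egr1 with rho = -0.690 (exact permutation p = 0.0694, adjusted 0.250), its r above having an exact permutation p of 0.0165 (adjusted 0.118), and r = -0.730 without PBS replicates 1 and 4. Without both replicates 4 the r of Jun with Egr1 was -0.439.

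**Figure D4:**
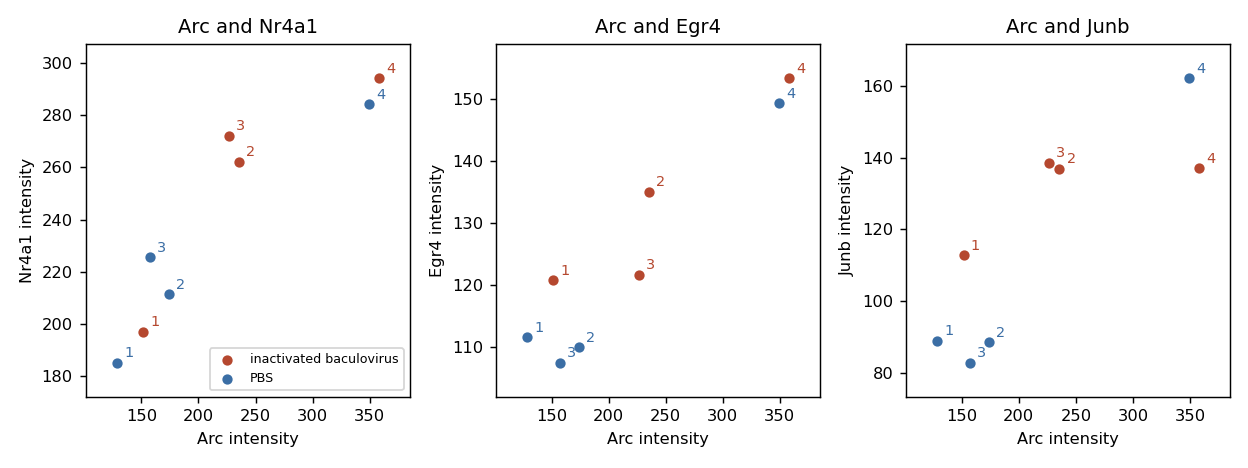
Intensity of Nr4a1, Egr4 and Junb (vertical axes, linear, not from 0) against that of Arc (horizontal axis) on the 8 arrays, red for inactivated baculovirus and blue for PBS, with the replicate number beside each point. Both replicates 4 lie at the right in each panel, at 358 and 349 for Arc, and PBS replicates 1 to 3 lie at the lower left.

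Haemoglobin transcripts, which mark blood in the tissue, moved with the same arrays. Hba-a3 measured 54.4, 86.4, 42.4 and 162 on baculovirus replicates 1 to 4 and 34.7, 50.7, 39.2 and 171 on PBS replicates 1 to 4. Hbb measured 86.3, 430, 73.7 and 735 against 63.3, 115, 46.6 and 488. Both haemoglobin genes were highest on replicate 4 of each group, and baculovirus replicate 2 came next. These were the 2 genes of the haemoglobin and red cell names looked up that were above the filter, a list drawn up after the values were seen, and the part of blood in the result was not tested. The mean level of the striatal neuron markers was also highest on both replicates 4, at 0.20 and 0.22, with 0.16 on PBS replicate 2, and was lowest on baculovirus replicate 1 and PBS replicate 1, at -0.21 and -0.26. Over the groups it ran from -0.21 to 0.20 after inactivated baculovirus and from -0.26 to 0.22 after PBS. With that level as a covariate in limma, 4 of the 11 member probe sets were under an unadjusted p of 0.05, as were 8.6% of all probe sets in that fit, and 0 passed the limma adjusted p, and Arc stood at 0.44 and Junb at 0.37. Cortical neuron markers showed no such order, with -0.05 and -0.09 on replicates 4 and the highest level, 0.19, on baculovirus replicate 3.

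Interferon-stimulated genes, read here from 20 genes above the filter, had a higher mean after inactivated baculovirus in 20 of 20, with 0 called. Their level ran from -0.78 to 0.92 after inactivated baculovirus and from -0.50 to 0.31 after PBS. Baculovirus replicate 4, at -0.78, was the lowest array of the series, below every PBS array. PBS replicate 4, at 0.31, was the highest PBS array and lay above baculovirus replicate 2, at 0.23. Both arrays on which immediate early genes were high thus ran against the group difference in interferon level. Microglia and macrophage markers were higher in 16 and lower in 1 of 17, with 0 called, at -0.17 to 0.31 against -0.36 to 0.15. Choroid and ependyma markers had -1.07 on PBS replicate 4 and -0.09 on baculovirus replicate 4. The excess of the 3' over the 5' beta-actin signal (log2), which reflects RNA integrity and labelling, was 0.722 on baculovirus replicate 4, the highest of the series, and 0.408 on PBS replicate 4, below 5 of the other 7 arrays. With the actin difference as a covariate 0 member probe sets were under an unadjusted p of 0.05 by limma, where 7.31% of all probe sets were. The part of the interferon, microglia and choroid levels in the result was not tested.

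Likeness to the mean centred level of the 9 genes was taken as Pearson's r over the 8 arrays for the 10530 other genes tested, as a description. Of these genes 20 had r above 0.9 and 23 below -0.9. With 8 arrays and 10530 genes some values of that size arise by chance, and how many was not tested. The level compared was set mostly by both replicates 4. The 5 most alike were Hrh1, a histamine receptor (r = 0.967), Irf2bp1 (0.958), Lama4, a laminin chain of vessel basement membranes (0.952), Praf2 (0.949) and Hba-a3 (0.947). On the replicates 4 Irf2bp1 measured 140 (baculovirus) and 150 (PBS), while its other values ran from 78.1 to 106. The 5 most opposed were Rnf144b, a ubiquitin ligase (r = -0.986), Syt12, a synaptotagmin (-0.960), Tox (-0.950), Aqp9, a water and glycerol channel (-0.950), and Ankrd44 (-0.947). Syt12 measured 27.2 and 27.0 on the replicates 4 while its other values ran from 58.3 to 79.9.

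Other immediate early genes and the parts of their pathway showed no call either. Over 15 further gene lists, cell type markers included, 214 distinct genes were tested and 0 passed the limma adjusted p of 0.05. With all 8 arrays 14 were under an unadjusted p of 0.05, which is 6.54% beside 6.58% of all genes tested. That count depended on single arrays. It was 34 of 214 without baculovirus replicate 4, where 6.09% of all probe sets were under 0.05. Without PBS replicate 4 it was 29, where 10.5% of all probe sets were. Leaving out any other single array gave from 6 to 20, and the cause was not tested. Other AP-1, ATF and C/EBP factors had 8 of 14 genes above the filter, 6 with a higher and 2 with a lower mean (median log2 difference 0.12, beside 0.02 over all genes), led by Nfil3 at 0.23 ± 0.14 (SE), Cebpb at 0.21 ± 0.14 and Jdp2 at 0.18 ± 0.12. Fosb, Fosl1 and Atf3, induced AP-1 and ATF members, were below the filter. Further EGR and NR4A genes and immediate early regulators had 10 higher and 5 lower of 15 tested (median 0.07). Nab2, a corepressor that EGR proteins induce and that inhibits them, led by p, with 120, 128, 117 and 150 against 115, 106, 96.8 and 123 (log2 difference 0.19 ± 0.10, limma adjusted p = 0.751). Nab2 was also highest on both replicates 4 within the groups, while Egr3 was below the filter. Ier5l and Ier5, serum-induced immediate early genes, stood at 0.21 ± 0.13 and 0.14 ± 0.09.

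Effector genes of neuronal activity had 5 higher and 12 lower of 17 tested (median -0.04). Syt4, a synaptotagmin of dense core vesicles that depolarisation induces, measured 428, 447, 430 and 409 against 589, 468, 555 and 448. The groups did not overlap, as for 3.86% of all probe sets, and the log2 difference was -0.25 ± 0.09 (SE, limma adjusted p = 0.688). Lingo1, a neuronal membrane protein that restrains axon growth, went the other way, with 677, 696, 848 and 719 against 642, 665, 577 and 631, also without overlap (log2 difference 0.22 ± 0.08, limma adjusted p = 0.696). Inhba, a subunit of activin, stood at -0.24 ± 0.16. Homer1, a postsynaptic scaffold whose short form is activity-induced, stood at -0.10 ± 0.07, and Bdnf, the neurotrophin, at 0.02 ± 0.14. Feedback inhibitors of the kinase cascade and of labile transcripts had 8 higher and 7 lower of 15 tested (median 0.02). By p these were led by Spry2, an inhibitor of receptor tyrosine kinase signals, at -0.23 ± 0.14, Zfp36, a protein that speeds the decay of AU-rich transcripts, at 0.19 ± 0.16, and its relative Zfp36l2 at -0.10 ± 0.09. Dusp1, the phosphatase that switches off MAP kinases and is itself an immediate early gene, measured 525 ± 18.7 and 510 ± 61.1 (SD, n = 4 each).

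The upstream relay, from glutamate receptors and RAS to MAP kinases, CREB and serum response factor, had 15 higher and 16 lower of 31 tested (median -0.01), and 3 of these were under an unadjusted p of 0.05. All 3 had a lower mean. Rps6ka5, the kinase MSK1 that phosphorylates CREB and histone H3 at immediate early promoters, measured 77.1, 93.3, 92.5 and 78.4 against 114, 116, 106 and 98.9. All 4 baculovirus arrays lay below all 4 PBS arrays (log2 difference -0.30, limma SE 0.10, limma adjusted p = 0.686). Mef2a, an activity-regulated transcription factor, measured 384, 397, 374 and 416 against 456, 425, 483 and 421, also without overlap (-0.18, SE 0.07, limma adjusted p = 0.717). Rps6ka3, the kinase RSK2, stood at -0.25 with an SE of 0.11 (limma adjusted p = 0.721), and its groups overlapped through PBS replicate 4. Of the prostaglandin pathway around Ptgs2, 8 of 14 genes were above the filter, 5 with a higher and 3 with a lower mean (median 0.07). Ptger3, a receptor for prostaglandin E2, had the smallest p, with 32.0, 37.3, 24.9 and 29.6 against 16.9, 18.8, 22.9 and 37.9 (log2 difference 0.25 ± 0.15, limma adjusted p = 0.777). The PBS arrays of Ptger3 held both the lowest and the highest value. Ptgs1, the constitutive cyclooxygenase, measured 48.0 ± 3.72 against 57.7 ± 12.5 (SD, n = 4 each), a log2 difference of -0.19 ± 0.13 (SE, limma adjusted p = 0.785). Ptges3, a prostaglandin E synthase also known as the chaperone p23, stood at -0.09 ± 0.07. The other prostaglandin E receptor genes Ptger1, Ptger2 and Ptger4 were below the filter.

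**Figure D5:**
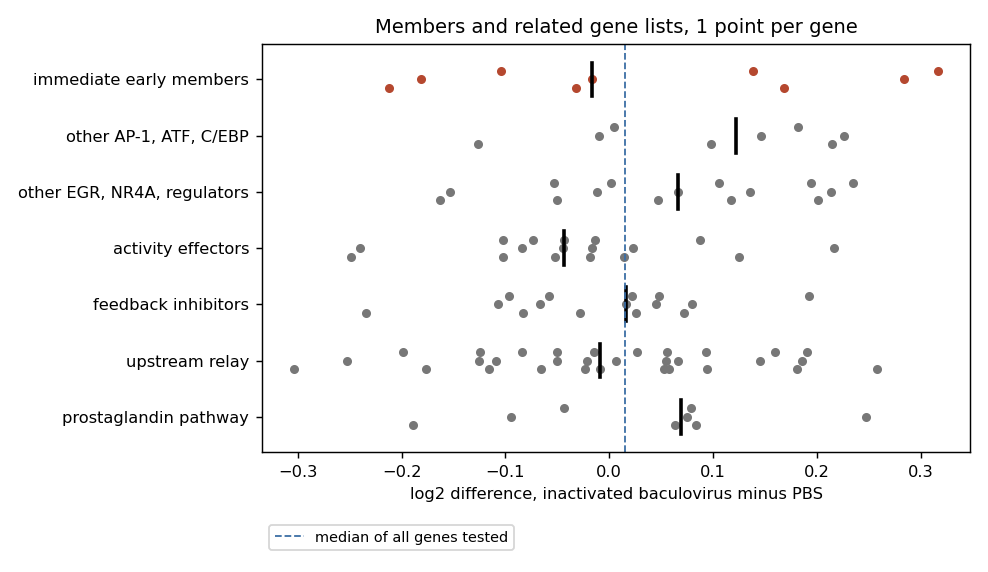
Log2 difference (inactivated baculovirus minus PBS) of each tested gene, 1 point per gene with its brightest probe set, for the 9 immediate early genes (red) and 6 related lists (grey). Black bars are list medians, from -0.04 to 0.12, the dashed line is the median of all genes tested, 0.02, and points are spread vertically only for legibility.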

How the data were processed

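Intensities of 31099 probe sets on 8 arrays were used as the authors deposited them, on a linear scale, scanned with the GCOS software per the labels' design text, and GCOS and GCRMA are named per the submitters' processing notes. Which algorithm gave the deposited intensity values is not stated there, and GeneSpring values were not used here. Each array had been scaled, with a trimmed mean of 100.02 on every array, so no further normalization was made. Labelled RNA came from either of a pair of kits, with no record in the labels of which array had which.

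The tests left out 57 control probe sets. Of the others, 20826 have a single symbol, 436 several and 9780 none, and of 20758 matched to RefSeq by gene number 0 changed symbol. A gene was represented by its brightest single-symbol probe set above the 40th percentile of mean level. The group comparison, two-sided and without a block, used limma 3.58.1 (R 4.3.3) with eBayes and its intensity trend on log2(intensity + 16), and Benjamini-Hochberg adjustment over 18625 probe sets. Precision is limited by having 4 arrays a group, and the 95% interval of the median probe set reached 0.231 to either side. On simulated data for this comparison (18625 probe sets, 200 changed) the fit recovered 62.5% at 1.5-fold and 96.5% at 2-fold, with 4 and 12 wrong calls. The simulated arrays had independent normal errors and held no outlying array. These rates can therefore overstate the recovery of more variable genes, such as Arc with a limma SE of 0.26.

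The members and the gene lists were chosen with earlier results of these data known. Named were all members, the 3 genes with the smallest p of each of the 6 related lists (marker lists are given by counts and levels) and the 5 genes most and least like the members. Homer1, Bdnf, Dusp1, Ppp1r1b, Ttr and the haemoglobin genes were named after their values were seen. Pairs of members were compared by exact permutation tests in Python 3.11.15. Promoter sequences are from RefSeq, assembly GRCr8.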

Additional observations from a re-analysis of the deposited data

Results flagged for a closer look

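In 3 of 32 groups of 4 arrays checked, 1 array lay far from the other 3, and chance alone flags about 1 in 20 such groups. Junb was at 113 on inactivated baculovirus replicate 1, and between 137 and 139 on the other 3 baculovirus arrays. On PBS replicate 4 Junb was at 162, where PBS replicates 1 to 3 lay from 82.9 to 89.0. Egr4 on that array was at 149, where PBS replicates 1 to 3 lay from 107 to 112. PBS replicate 4 is the array with Ttr at 47.7 and with Hba-a3 at 171, and the part of either in these values was not tested.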

How the results depend on the processing

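No member probe set was called under any of the alternatives run (median centring, quantile normalization, a pseudocount of 1 or 64, a filter at the 60th percentile or none, weighted arrays, a fit without the trend, the methods' t-test, the replicate block, each array left out and, chosen after seeing the data, the striatal marker and beta-actin covariates), and the lowest limma adjusted p among them was 0.324. The related lists also had 0 calls throughout, and so did all probe sets tested, under each of the alternatives. The median log2 difference of the members ran from -0.045 with median centring to 0.095 without PBS replicate 4. Of 218 recomputed member values 212 kept their direction and 6 turned. The alternatives that change only the filter, the variance trend, the test or the block leave the fitted difference as it was. Their values, counted among the 212, could not turn. The brightest Jun probe set, at -0.02, was at 0.00303 with array weights. With 1 array left out it ran from -0.071 to 0.019, Egr1 from -0.11 to 0.095 and Fos from -0.26 to 0.051, and the cause was not tested. Of the pairs of members, 2 passed in the report, 4 with quantile normalization, 0 with median centring and 0 to 2 with 1 array left out (0 without PBS replicate 1 or PBS replicate 2). The main fit has no block because the design text names none, and the blocked fit was run as an alternative. Over all probe sets same-numbered arrays of the groups did not deviate together (r between -0.01 and 0.02 for the 4 numbers, and no baculovirus array correlated best with its own number). That check does not speak for single genes, and for Arc both replicates 4 were the highest arrays. With the replicate block 0 member probe sets were called, and 2 were under an unadjusted p of 0.05, as were 6.29% of all probe sets (Arc, limma adjusted p = 0.785, and Junb, limma adjusted p = 0.787).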
